A study of Mus musculus with 6 samples.

Results

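The complexin genes Cplx2, Cplx3 and Cplx4 were chosen by gene symbol from the expression table of a mouse cone study, and make up 3 of its 9720 genes. Poly(A) RNA was sequenced from cone photoreceptors that were sorted by FACS for eGFP from dissociated neural retinas of adult mice, with 3 libraries in each of 2 groups. The control group had the genotype HRGPcre;Bmal1f/+;Z/EG and the knockout group HRGPcre;Bmal1f/f;Z/EG, on C57BL/6 with a mixed background. All 6 libraries therefore share the Cre transgene HRGPcre and the reporter Z/EG, which turns on eGFP after Cre has acted. The control mice carried a floxed Bmal1 allele too, so they are heterozygous after recombination and not wild type as the series text calls them. The labelled age was both postnatal day 60 to 80 and 2 to 6 months, and light and dark alternated every 12 h. Neither the hour of collection nor the number of animals per library is stated in the labels. The p-values thus measure only the spread between these libraries, which may be technical. The series title names complexin 3 as a target of the cone circadian clock, and the comparison of knockout with control asked whether its RNA depends on Bmal1.

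Complexins are small cytosolic proteins that bind the assembled SNARE complex, the bundle of syntaxin, SNAP25 and synaptobrevin helices that pulls a synaptic vesicle onto the plasma membrane. They both hold back fusion until calcium arrives and promote it afterwards. Complexins 1 and 2, the products of Cplx1 and Cplx2, serve conventional synapses. Complexins 3 and 4 serve the ribbon synapses of the retina, where photoreceptors and bipolar cells release glutamate continuously, and both end in a lipid-modified CAAX motif. BMAL1 is the transcription factor that pairs with CLOCK to bind E-box elements in the promoters of clock-controlled genes.

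The promoter windows of Cplx3 and Cplx2 are shown because the deleted factor binds E-boxes, and because Cplx3 passed the test between the groups and Cplx2 did not. Both come from RefSeq on GRCm38.p6, 5′ to 3′ on the gene's own strand, and run from 250 bases before to 50 bases after the annotated start. Capitals mark each match to the E-box CACGTG.
Cplx3, chr9:57606232-57606531, minus strand: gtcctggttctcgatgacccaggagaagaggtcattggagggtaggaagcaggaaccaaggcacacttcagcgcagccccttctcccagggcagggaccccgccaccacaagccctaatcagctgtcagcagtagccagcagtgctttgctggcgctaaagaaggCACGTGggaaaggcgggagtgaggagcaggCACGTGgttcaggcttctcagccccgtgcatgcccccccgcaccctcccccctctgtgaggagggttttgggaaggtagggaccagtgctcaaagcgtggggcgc
Cplx2, chr13:54302306-54302605, plus strand: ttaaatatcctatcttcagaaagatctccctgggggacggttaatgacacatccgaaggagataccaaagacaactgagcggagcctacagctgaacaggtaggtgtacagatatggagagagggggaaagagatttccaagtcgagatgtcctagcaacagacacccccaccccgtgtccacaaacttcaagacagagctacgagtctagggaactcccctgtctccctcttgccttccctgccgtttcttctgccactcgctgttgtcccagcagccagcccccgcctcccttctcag

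The Cplx3 window held 2 copies of CACGTG, beginning 85 and 55 bases before the start of the gene, so their first bases lay 30 bases apart. On chromosome 9 they occupied bases 57606361 to 57606366 and 57606331 to 57606336. The Cplx2 window held none. Over all 32851 promoter windows of the same length in the RefSeq table, 7.15% held at least 1 copy and 0.594% held 2 or more. Among the 8566 windows of genes tested here the shares were 10.5% and 1.24%. The window of Nr1d1, which also read lower in knockout (below), held 0 copies, and the 2 windows of Gzmm held 0 and 1. Those of Uqcr11 and Sphk2, close to Cplx3 in profile (below), held 0. No window was matched for Aes, also close in profile, or for Cplx4. The windows of Per3 and Nr1d2, which also read lower in knockout (below), were not counted singly. Whether copies go with the difference between the groups was not tested. CACGTG reads the same on both strands and was counted once per position. On both strands, the E-box variant CACGTT and the D-box TTATGTAA were absent from both windows and present in 4.68% and 0.938% of all windows. The ROR and REV-ERB binding motif AGGTCA, present in 16.3% of windows, occurred once in the Cplx3 window, 222 bases before the start, and not in that of Cplx2. The RefSeq start of Cplx2 lies 68.8 kb before the GENCODE start, so its window lies far from the start of that gene model. These matches describe letters and not binding, which was not measured.

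Bmal1 itself, listed in the table under its symbol Arntl, did not check the labels. The control libraries read 2.9998, 2.60 and 3.27 FPKM, the knockout libraries 3.37, 2.28 and 3.48 FPKM, and the groups overlap. Each library has a single value for the gene, so the floxed part, which the labels do not state, is not seen apart. FPKM scale fragments by transcript length and by library size, so levels of different genes can be set side by side on this scale. The FPKM sums of the 6 libraries ran from 84995 to 128773, and since FPKM keep no read total, the depth of each library is unknown. The cone label was checked against 11 cone markers, all of which were in the table, with summed levels of 4128 to 6940 FPKM in control and 5552 to 6694 FPKM in knockout. Rod markers were also present, 15 of 16 in the table, with sums of 3015 to 3710 FPKM in control and 2536 to 3642 FPKM in knockout. Control 1 stood apart, with a mean correlation across genes of 0.899 to the other libraries against 0.929 to 0.946 for the remaining 5.

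Cplx3 was the complexin that changed. Its RNA measured 18.5, 24.7 and 21.03 FPKM in the control libraries and 4.42, 4.29 and 5.76 FPKM in the knockout libraries. Each knockout library was below each control library, with a wide gap between the highest knockout and the lowest control. The mean fell from 21.4 ± 3.14 to 4.82 ± 0.81 FPKM (SD, n = 3 each), to 22.5% of the control level. On the scale of log2(FPKM + 1), knockout differed from control by -1.94 ± 0.22 (SE; 95% interval -2.43 to -1.46, adjusted p = 0.0018 in limma). Of 8627 genes tested, 9 passed the adjusted threshold of 0.05, or 0.104%, and 5 of these were lower in knockout, or 0.058%. Cplx3 ranked in position 6 by p. The other 4 lower genes were the clock genes Nr1d1 (-3.24), Per3 (-2.81) and Nr1d2 (-2.29) and the protease gene Gzmm (-2.78), so Cplx3 had the smallest log2 difference of the 5. In bulk RNA, fewer cells that express a gene and less of its RNA per cell cannot be told apart. The hour of collection cannot be told apart from the genotype here either.

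Within each library the fall moved Cplx3 from among the more abundant genes of the table to the middle. Its level exceeded that of 91.2%, 92.4% and 89.5% of all genes in the control libraries. In the knockout libraries it exceeded 57.0%, 56.1% and 62.9%. Cplx4 stayed near the top, above 99.3% to 99.5% of genes in all 6 libraries. Cplx2 lay near the middle in both groups, above 51.5% to 56.0% in control and 46.8% to 67.8% in knockout.

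Cplx4, which encodes the second ribbon-synapse complexin, was by far the most abundant of the family. The control libraries held 99.1, 152 and 216 FPKM, and the knockout libraries 159, 161 and 161 FPKM. The control libraries spread over a 2.18-fold range that encloses all 3 knockout values, which lay within 1.01-fold of each other. Means were 156 ± 58.7 and 160 ± 1.05 FPKM (SD, n = 3 each). Limma gave a log2 difference of 0.11 ± 0.30 (95% interval -0.54 to 0.77, adjusted p = 0.9996). This interval leaves room for moderate changes either way, but it does not reach the difference measured for Cplx3.

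The narrow spread of Cplx4 in the knockout libraries depended on scaling. Control 1, the lowest for Cplx4, also had the lowest FPKM sum, and control 3, the highest, had the highest sum. After all libraries were set to the same FPKM sum, Cplx4 measured 123, 150 and 177 in control and 164, 166 and 158 in knockout. The coefficient of variation then fell from 37.7% to 18.04% in control, while in knockout it rose from 0.654% to 2.52%. After scaling to the cone markers, the knockout values were 189, 168 and 148, and their coefficient of variation was 12.2%. Complexin 4 is also made by rods. The part of rod RNA in the Cplx4 values, and in the ratios and shares that use them, was not tested. With the rod marker level as a covariate the log2 difference was -0.06 ± 0.23 (SE), against 0.11 ± 0.30 without it, both within their error of 0.

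Cplx2, which encodes a complexin of conventional synapses, was low in the sorted cones. Levels were 4.05, 3.90 and 4.82 FPKM in the control libraries against 3.22, 6.35 and 4.49 FPKM in the knockout libraries. The knockout values enclose all control values, with knockout 1 lowest and knockout 2 highest. Means were 4.26 ± 0.50 and 4.69 ± 1.58 FPKM (SD, n = 3 each). On the log2 scale the difference was 0.08 ± 0.24 (95% interval -0.45 to 0.61, adjusted p = 0.9996 in limma). Without knockout 2 it turned to -0.12. Cplx1 is not in the table, which lists 3 complexins, so its level is not known from these values.

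**Figure D1:**
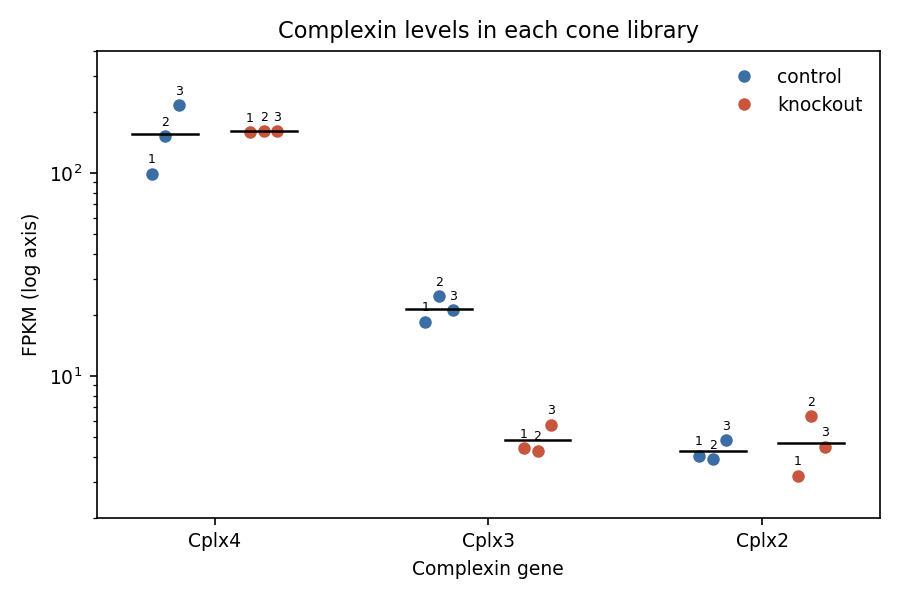
FPKM of Cplx4, Cplx3 and Cplx2 (log axis) in the 3 control (blue) and 3 knockout (red) libraries, numbered by replicate, with bars at the group means. Cplx3 alone separates the groups, from a mean of 21.4 to 4.82 FPKM, and in knockout it lies at the level of Cplx2 (4.69 FPKM).

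The order of the family changed at its lower end. In the control libraries, which also hold rod RNA, Cplx4 stood 5.37, 6.14 and 10.3 times above Cplx3. There Cplx3 stood 4.57, 6.34 and 4.36 times above Cplx2. The 3 genes were therefore well separated in each control library. In the knockout libraries the ratio of Cplx4 to Cplx3 was 36.0, 37.6 and 27.9. The ratio of Cplx3 to Cplx2 was 1.37, 0.675 and 1.28, so Cplx2 exceeded Cplx3 in knockout 2 and fell short of it in the other 2 libraries. Their mean difference in knockout was 0.137 ± 1.90 FPKM (SD, n = 3), within its spread, against 17.2 ± 3.30 FPKM in control.

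Ratios within a library compare the members without any scaling between libraries. The log2 ratio of Cplx3 to Cplx4 was -2.42, -2.62 and -3.36 in control and -5.17, -5.23 and -4.80 in knockout, a difference of means of -2.27. The groups do not overlap, and the exact two-sided permutation test gave p = 0.10, the smallest that 3 against 3 libraries can give. That of Cplx3 to Cplx2 was 2.19, 2.66 and 2.12 in control and 0.457, -0.566 and 0.360 in knockout, a difference of -2.24 (exact permutation p = 0.10). The difference of the Cplx3 level itself was -1.94 with a pseudocount of 1 FPKM and -2.13 with 0.1 FPKM, whereas these ratios carry none.

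As a share of the summed FPKM of the 3 complexins, Cplx3 made up 15.2%, 13.7% and 8.69% in the control libraries. In the knockout libraries it made up 2.65%, 2.50% and 3.37%. The lowest control share, in control 3, belongs to the library with the most Cplx4. Mean shares were 12.5% ± 3.41 and 2.84% ± 0.47 (SD, n = 3 each), a difference of -9.68 percentage points. The groups do not overlap, and the exact permutation test gave p = 0.10, again the smallest it can give. Cplx4 held 85.0% ± 3.99 in control and 94.4% ± 0.88 in knockout, also without overlap (exact permutation p = 0.10), a share that must rise where that of Cplx3 falls. Cplx2 held 2.49% ± 0.73 and 2.75% ± 0.89 (exact permutation p = 0.70). For comparison, the ranges of control and knockout values were apart for 9.39% of the 8627 tested genes.

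**Figure D2:**
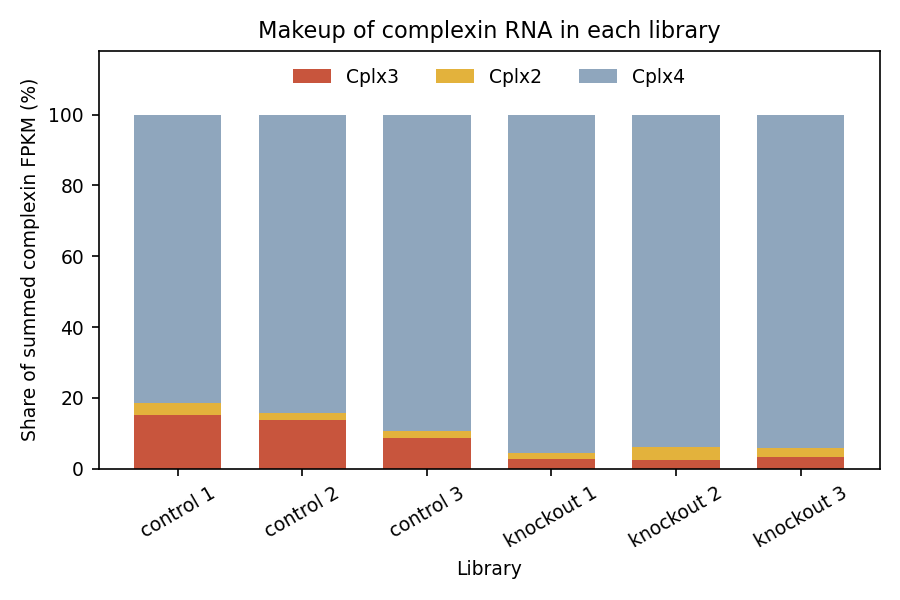
Share of the summed complexin FPKM held by Cplx3 (red), Cplx2 (yellow) and Cplx4 (grey blue) in each library, in percent. The Cplx3 part runs from 8.69% to 15.2% in control and from 2.50% to 3.37% in knockout.

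The summed complexin level did not separate the groups. Control libraries reached 122, 180 and 242 FPKM, and knockout libraries 167, 172 and 171 FPKM. Means were 181 ± 60.2 and 170 ± 2.67 FPKM (SD, n = 3 each; exact permutation p = 0.70). Because Cplx4 supplies most of the sum, its spread between control libraries is several times the FPKM that Cplx3 lost. A change in total complexin RNA of the size of the Cplx3 difference, 16.6 FPKM, could therefore not be seen in these libraries.

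The genes lie on separate chromosomes. Cplx3 occupies bases 57599992 to 57606281 of chromosome 9, minus strand, with 4 merged exons and 3 annotated transcripts (GRCm38, GENCODE vM21). Cplx2 occupies bases 54371349 to 54383917 of chromosome 13, plus strand, with 4 exons. Cplx4 occupies bases 65955722 to 65970237 of chromosome 18, minus strand, with 3 merged exons. Each gene has a single deposited value per library, and exons, introns and UTRs were not measured apart. In GENCODE vM21 no annotated gene on either strand overlaps the body of any of the 3.

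Among genes within 100 kb of a complexin, the nearest neighbour of Cplx3 also read low in knockout. Lman1l, which encodes a lectin-like relative of the cargo receptor LMAN1, ends 804 bases before the start of Cplx3 and is read from the same strand. Its level was 1.64, 0.977 and 2.06 FPKM in the control libraries, against 0.176, 0.212 and 0.115 FPKM in the knockout libraries. The groups do not overlap, and the knockout values lie close to 0.1 FPKM, below which the table holds no value. Means were 1.56 ± 0.55 and 0.168 ± 0.049 FPKM (SD, n = 3 each; exact permutation p = 0.10, the smallest possible). With an average of 0.863 FPKM it missed the filter of 1 FPKM and was not tested with the other genes. Without the filter its log2 difference was -1.11 ± 0.25, and it did not pass (adjusted p = 0.23, limma). Its own RefSeq promoter window held no CACGTG. Alignments were not used here, so how reads were assigned between Lman1l and Cplx3, and whether any run through both genes, was not tested, which limits what the Lman1l values mean.

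The other neighbours of Cplx3 differed little between the groups. All 7 that were tested had log2 differences between -0.16 and 0.18, and their adjusted p started at 0.9996 in limma. Ulk3, a kinase gene 3.76 kb away on the opposite strand, measured 2.89 ± 0.43 and 3.11 ± 0.37 FPKM. Scamp2, which encodes a secretory carrier membrane protein and lies 11.2 kb away, measured 2.63 ± 0.84 and 2.60 ± 0.22 FPKM. Csk, a kinase gene 20.4 kb away beyond Lman1l, measured 1.01 ± 0.60 and 1.08 ± 0.57 FPKM. Fam219b, 56.8 kb away, was narrowly apart between the groups, with 1.83, 1.62 and 1.78 FPKM in control libraries and 1.56, 1.60 and 1.22 FPKM in knockout libraries, and it did not pass the test. Cplx4 has the paralog Lman1 beside it in the same arrangement, 10.5 kb away on the same strand, at 20.8 ± 3.08 and 20.4 ± 1.86 FPKM. On its other side lies Rax, which encodes a retinal homeobox factor, at 16.8 ± 5.12 FPKM in the control libraries against 21.98 ± 8.43 FPKM in the knockout ones, with an adjusted p of 0.97 (limma). The single neighbour of Cplx2, Thoc3, which encodes an mRNA export factor, measured 2.09 ± 0.66 and 1.54 ± 0.35 FPKM (adjusted p = 0.97, limma).

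**Figure D3:**
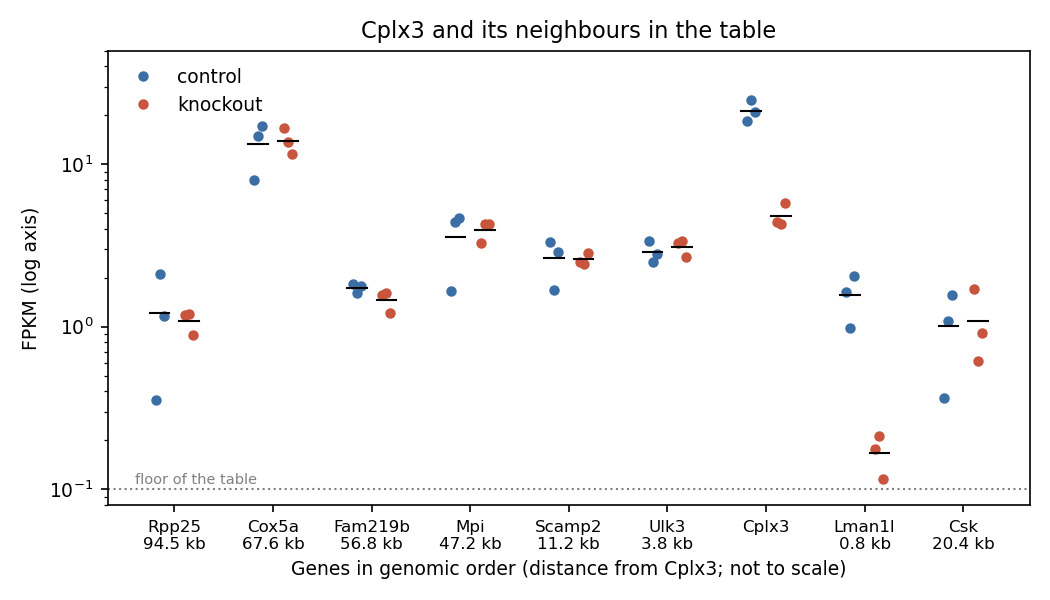
FPKM (log axis) of Cplx3 and the 8 genes of the table within 100 kb of it, in genomic order, in control (blue) and knockout (red) libraries, with bars at the means and a dotted line at the floor of 0.1 FPKM. Cplx3 and the adjacent Lman1l separate the groups widely (means of 1.56 and 0.168 FPKM for Lman1l), Fam219b does so narrowly, and the values of Ulk3, Scamp2 and Csk overlap between them.

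Genes that complexins work with were examined in 8 lists of vesicle release, holding 80 genes, of which 57 were tested. None passed in either direction in limma, 4 had an unadjusted p under 0.05 (Napa, Sv2b, Vamp3 and Sv2a, the last named after its values were seen), against 474 of all 8627 genes tested (5.49%), and the median log2 difference was -0.00087, against -0.016 over all genes tested. Of 6 core SNAREs, 4 were tested. Snap25, the plasma membrane SNARE, measured 369 ± 66.7 and 433 ± 64.2 FPKM. Vamp2, the vesicle SNARE, measured 114 ± 12.1 and 94.5 ± 30.2 FPKM (adjusted p = 0.98, limma). Of the other SNAREs, 14 of 16 were tested. Vamp4, the most abundant, measured 17.1 ± 5.58 and 18.7 ± 0.96 FPKM, and Vamp3 measured 5.32 ± 0.57 and 3.47 ± 0.91 FPKM (adjusted p = 0.897, limma).

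Syt1, the calcium sensor that triggers fusion of complexin-bound vesicles, led the 3 tested of 10 sensors. Its control libraries read 43.3, 50.2 and 65.8 FPKM and its knockout libraries 69.1, 66.2 and 66.8 FPKM, and it did not pass (adjusted p = 0.93, limma). The 7 tested priming genes and chaperones included Unc13a, a vesicle priming gene, at 6.71 ± 2.96 and 3.98 ± 0.59 FPKM. All 4 disassembly genes were tested. Nsf, the ATPase that takes SNARE complexes apart, measured 46.8 ± 10.6 and 48.3 ± 3.44 FPKM. Its adaptor gene Napa had the smallest p of that list, with 15.9, 11.1 and 12.1 FPKM in the control libraries and 6.41, 6.67 and 9.43 FPKM in the knockout libraries. The Napa groups do not overlap, but it did not pass (log2 difference -0.73 ± 0.24, adjusted p = 0.65, limma).

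Among 8 tested genes of vesicle proteins, Sv2b was the most abundant. Its values were 181, 188 and 204 FPKM in the control libraries and 358, 428 and 234 FPKM in the knockout libraries, without overlap, but it did not pass (log2 difference 0.79 ± 0.29, adjusted p = 0.81, limma). In the ribbon and active zone list 9 genes were tested. Unc119, which encodes a lipid-binding photoreceptor protein, measured 143 ± 32.5 and 132 ± 21.2 FPKM, and Pclo, which encodes the scaffold piccolo, 12.7 ± 1.87 and 16.1 ± 0.74 FPKM (adjusted p = 0.93, limma). Complexins 3 and 4 need farnesylation and CAAX processing for membrane attachment, and 8 of 9 genes of that pathway were tested. Icmt, the CAAX methyltransferase gene, measured 97.0 ± 34.5 and 94.96 ± 26.8 FPKM. Arl3, which releases lipid-modified cargo in photoreceptors, measured 44.4 ± 7.32 and 30.4 ± 9.87 FPKM (adjusted p = 0.897, limma). A p above the threshold does not show that these genes were equal between the groups.

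**Figure D4:**
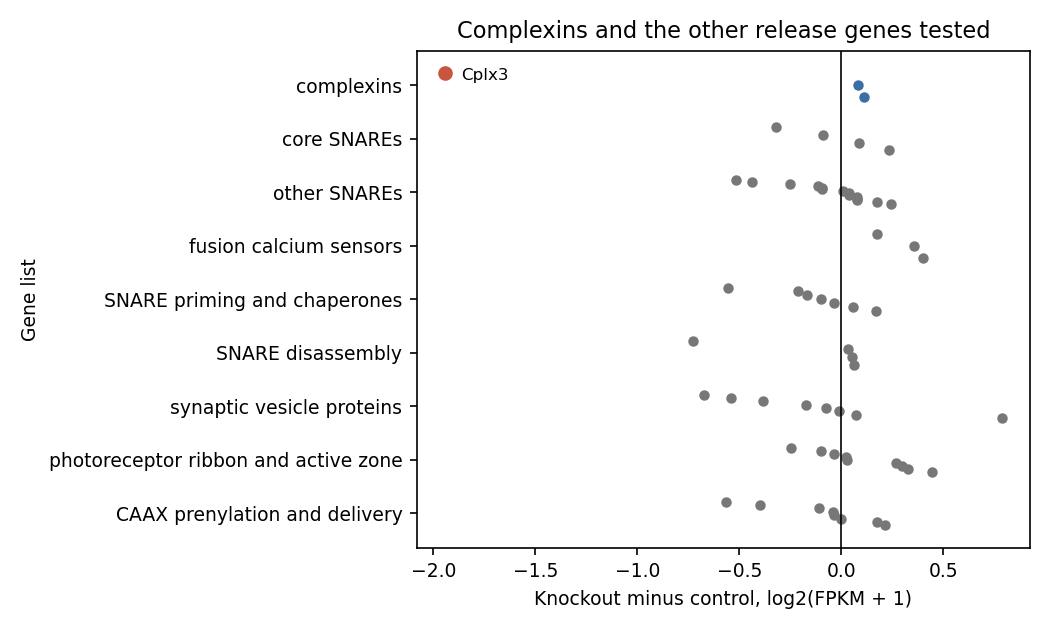
Knockout minus control difference on the log2(FPKM + 1) scale for the complexins and each tested gene of 8 lists of vesicle release, 1 point per gene. Cplx3 lies at -1.94, and the 57 other release genes lie between -0.73 (Napa) and 0.79 (Sv2b).

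Complexins are also made by other retinal cells, whose markers were measured beside them. Bipolar cells and some amacrine cells make complexin 3. Of 12 bipolar markers 9 were in the table, with sums of 24.7 to 44.3 FPKM in control and 26.3 to 34.3 FPKM in knockout. These sums overlap. Of the 7 tested, 5 had a negative log2 difference, the direction of Cplx3, as had 4538 of all 8627 genes tested. Gng13, a G protein subunit gene of ON bipolar cells, had the smallest p of the list, with 6.31, 2.96 and 3.56 FPKM in the control libraries and 2.16, 1.17 and 2.05 FPKM in the knockout libraries. Its groups do not overlap, but it did not pass (log2 difference -0.89 ± 0.27, unadjusted p = 0.0062, adjusted p = 0.61, limma). The part of bipolar cell RNA in the Cplx3 result was not tested. Of 12 amacrine markers 2 were in the table, Slc6a9 and Pax6. Their sums were 8.98 to 11.2 FPKM in control and 5.01 to 8.15 FPKM in knockout, lower there without overlap. Singly, neither gene separated the groups. Slc6a9 ran from 4.58 to 8.29 FPKM in control and from 4.04 to 6.53 FPKM in knockout. Pax6 ran from 0.684 to 6.65 FPKM in control and from 0.961 to 1.62 FPKM in knockout. The part of these genes' cells in the Cplx3 result was not tested. Neither gene passed (adjusted p = 0.98 and 0.93, limma). In control 1, the control library with the least Cplx3, Pax6 read highest, at 6.65 FPKM. Slc6a9 had its lowest control value there, at 4.58 FPKM. Without control 1 the log2 difference of Cplx3 was -2.04, but leaving out 1 library does not test which cells the RNA came from. Ganglion cells, which make complexin 2, were represented by 5 of 12 markers. Their sum was 25.1 FPKM in control 1 and 3.06 to 5.47 FPKM in the other libraries. Most of the sum in control 1 came from a single gene, Stmn2, at 21.1 FPKM there and 0.1 to 0.668 FPKM elsewhere. Cplx2 in control 1 lay within its range over the rest. The part of ganglion cell RNA in the Cplx2 values was not tested. Müller glia markers, 6 of 11 in the table, summed to 48.6 to 55.9 FPKM in control and 43.3 to 46.6 FPKM in knockout, also without overlap. Singly, 2 of these 6 genes were apart between the groups, against 9.39% of all 8627 genes tested. Of 6 horizontal cell markers 1 was present, Prox1, at 1.42 ± 0.66 and 0.878 ± 0.179 FPKM. Stmn2 was also the one marker found at the floor of 0.1 FPKM, below which no value can lie. Each gene of the table exceeds 1 FPKM in at least 1 library. Markers missing from it, such as Grm6 and Vsx1 (bipolar), Gad1 and Gad2 (amacrine) and Pou4f1 (ganglion cell), have no value here.

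Genes with the profile most like each complexin were named by Pearson's r of log2(FPKM + 1) over the 6 libraries, across 8626 other tested genes. The points share libraries and scaling, so r is a description. Since Cplx3 is split by group, a high r with it partly restates the group difference. For Cplx3, 84 genes had an r above 0.9. The 5 closest were Gzmm (0.992), Nr1d1 (0.987), Uqcr11 (0.986), Aes (0.982) and Sphk2 (0.980). Gzmm and Nr1d1 passed the test between groups. Uqcr11, a subunit gene of respiratory complex III, measured 12.9 ± 0.88 and 8.48 ± 0.50 FPKM and did not pass (adjusted p = 0.82, limma). Sphk2, which encodes a sphingosine kinase, averaged 5.12 ± 1.01 FPKM in control against 1.94 ± 0.44 FPKM in knockout (adjusted p = 0.21, limma). For Cplx4, 483 genes had an r above 0.9, led by Bud31 (0.997), Rnf14 (0.996) and Golga3 (0.994). All 3 were lowest in control 1 and highest in control 3, as Cplx4 was. For Cplx2, 42 genes did, led by Tcea1 (0.976), Mbnl2 (0.973) and Tc2n (0.968), which like Cplx2 were lowest in knockout 1 and highest in knockout 2.

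The Cplx3 result was recomputed under 18 alternatives of pseudocount, filter, scaling, variance model, covariate, pairing and left-out library. Its log2 difference ran from -2.13 to -1.84 and passed in each of them, with adjusted p from 5.06e-05 to 0.031 in limma. The largest adjusted p came without control 2, the library with the most Cplx3, and with a replicate block it was 0.029. Scaled to the cone markers, Cplx3 measured 23.05, 23.5 and 18.2 in control and 5.26, 4.47 and 5.31 in knockout, again without overlap. Cplx4 and Cplx2 passed in none of theirs.

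**Figure D5:**
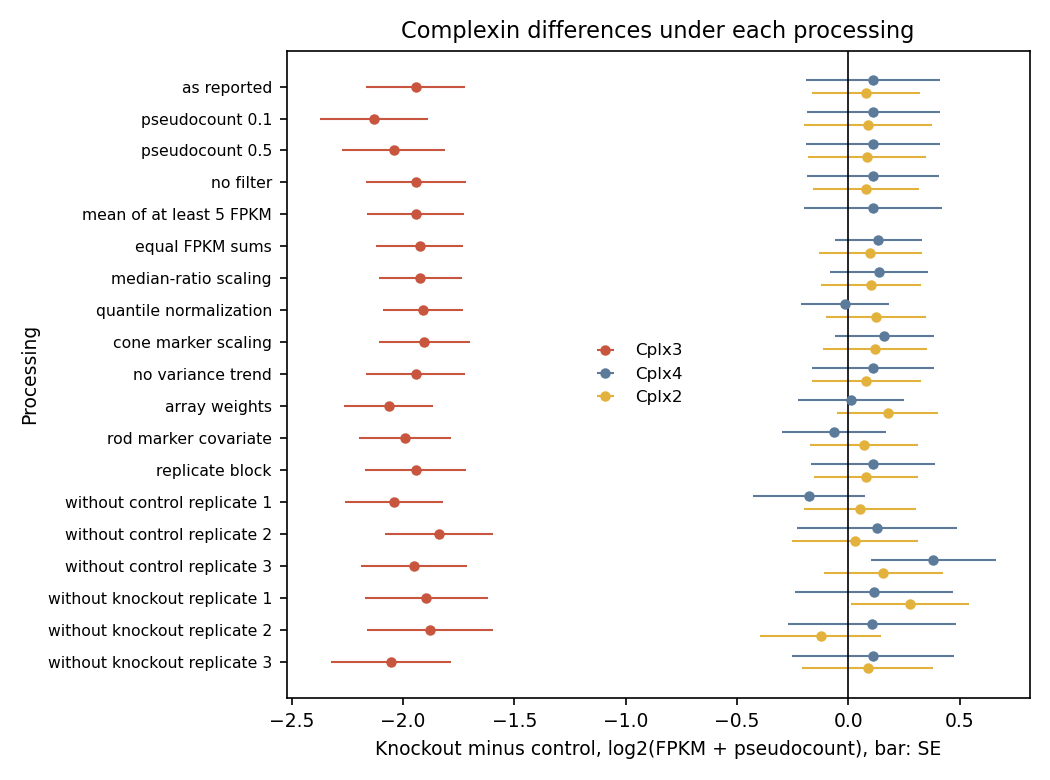
Log2 difference (knockout minus control, log2 of FPKM plus pseudocount) of Cplx3, Cplx4 and Cplx2 as reported and under each alternative, with SE bars. Cplx3 stays between -2.13 and -1.84, while Cplx4 lies between -0.18 and 0.38 and Cplx2 between -0.12 and 0.28; Cplx2 has no value under the filter of 5 FPKM.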

How the data were processed

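Per the labels' protocols, paired-end poly(A) libraries were made from 100 ng of RNA of sorted cones. The authors' deposited file is a single table of FPKM, with a column per library. Per the submitters' processing notes TopHat2 2.1.0, Cufflinks 2.2.1, HTSeq, DESeq2 and mm10 were involved, without stated roles. The annotation and strand use are not stated there. Each of the 9720 genes exceeds 1 FPKM in at least 1 library, and no value lies under 0.1 FPKM. Depth is unknown, so no counting interval is given.

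Groups came from the genotype labels. Genes averaging 1 FPKM or more were kept, values were taken as log2(FPKM + 1), and knockout and control were compared across 8627 genes with limma 3.58.1 in R 4.3.3 (variance trend, two-sided, Benjamini-Hochberg adjustment, threshold 0.05). Within-library shares and ratios were compared with exact two-sided permutation tests over the 6 libraries. Annotation came from GENCODE vM21 on GRCm38, the assembly of mm10. Promoters of 2 of 3 members, Cplx2 and Cplx3, were matched in RefSeq. Named genes were the complexins, Arntl, the most abundant gene and the gene of smallest p in each list, the genes of most similar profile and all table genes within 100 kb. The values of 1 gene under this rule are not reported here. The members and lists were chosen with earlier results of these data known. Other computation used matplotlib 3.10.9, numpy 2.4.6, pandas 2.3.3 and Python 3.11.15.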

Additional observations from a re-analysis of the deposited data

How the results depend on the processing

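The log2 difference of Cplx3 kept its direction and passed in all 18 alternatives. Its share and ratios had 8 alternatives each, cannot pass with 3 against 3 libraries, and are given as values alone: when 1 library was left out its share differed by -11.6 to -8.35 percentage points, its log2 ratio by -2.55 to -2.08 to Cplx4 and by -2.43 to -1.92 to Cplx2, and the Cplx4 share by 7.68 to 11.6 percentage points. The log2 difference of Cplx4, never past the threshold, changed sign with the rod marker covariate (-0.065), without control 1 and after quantile normalization (-0.014), and ranged from -0.18 to 0.38 when 1 library was left out. That of Cplx2 ranged from -0.12 to 0.28, and its share difference from -0.21 to 0.68, turning without knockout 2. The summed complexin difference of -11.7 FPKM turned to 0.579 FPKM with cone marker scaling and ranged from -41.5 without control 1 to 18.7 without control 3. The cause of these turns was not tested. Array weights gave 23 genes past the threshold in place of 9, and leaving out 1 library gave 6 to 13. Of the genes in the fixed lists, 0 passed in limma under each of the 18 alternatives, with 8 of 102 at an unadjusted p under 0.05 as reported, against 474 of all 8627 genes tested (5.49%). The replicate numbers did not pair the libraries: deviations of same-numbered libraries correlated at -0.12, -0.085 and -0.034, and with the replicate block 6 genes passed and the Cplx3 difference was -1.94. Alternatives for Lman1l were chosen after its values were seen, and it passed in none of 15 (adjusted p from 0.093 to 0.87, limma). Sphk2 passed with array weights (adjusted p = 0.016, limma). Cplx2 had no value under the filter of 5 FPKM.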
